A study of Rattus norvegicus with 12 samples.

Results

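Many genes in a compact genome point at each other: a gene on the plus strand and a gene on the minus strand end close together, tail to tail, so that transcription running past either 3′ end enters the opposite strand of its neighbour. Genes of this convergent kind were taken from RNA sequencing of rat islet cells in which mt-tRF-LeuTAA, a fragment cut from a mitochondrial tRNA for leucine, had been silenced. A member was any gene off chrMT with an anti-control mean of at least 4 log2 CPM (read counts scaled to a common library size) whose 3′ end lay within 5 kb of, or overlapped, the 3′ end of an opposite-strand gene that also reached 4. The rule found 1135 members in 577 pairs, which was 14.5% of the 7828 genes off chrMT at that level. The other 6693 genes at that level served for comparison, and 13733 genes were in the table as a whole. The members were chosen by their anti-control level and annotated positions, so those values describe them and are not results.

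The libraries came from pancreatic islets of 3-month-old male Wistar rats, dispersed into single cells, cultured and transfected with 30 pmol of single-stranded antisense oligonucleotide with Lipofectamine 2000. One group of 6 libraries received a scrambled oligonucleotide (anti-control), and the other group of 6 received an oligonucleotide complementary to the fragment (anti-mt-tRF-LeuTAA). RNA was extracted after 72 h in both groups, and stranded libraries were made from total RNA. Isolation, dispersal, culture and transfection were thus shared by both groups, and per the study's methods each number stands for the islets of 1 rat. The libraries held 17611540 to 23448990 reads in genes in anti-control and 16351696 to 20271217 in anti-mt-tRF-LeuTAA. Islet preparations mix cell types, and in such bulk RNA fewer cells of a type and less RNA per cell cannot be told apart. Beta cell markers summed to between 82599 and 163346 CPM in anti-control and between 88822 and 153647 CPM in anti-mt-tRF-LeuTAA, whereas the 3 measured acinar markers of the 7 listed stayed at or below 15.3 CPM in every library. Stromal markers summed to 1069 to 4297 CPM in anti-control and 436 to 2895 CPM in anti-mt-tRF-LeuTAA, and Acta2 was the one marker on any of the lists that was a member. The part of these cell types in the results below was not tested.

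A gene ends where its transcript is cleaved at a polyadenylation signal, after which RNA polymerase II runs on for some distance before it is released. Cleavage factors such as the CPSF and CSTF complexes, and termination factors such as PCF11 and XRN2, act at this step. In a convergent pair the polymerase that has passed one 3′ end travels towards the polymerase coming from the other, and RNA made beyond the end is antisense to the neighbour.

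Among the 577 pairs, the annotated genes overlapped in 96, stood up to 1 kb apart in 166 and stood more than 1 kb and up to 5 kb apart in 315. The median overlap was 617.5 bases and the median distance of the pairs that did not overlap was 1694 bases. Of the members, 1116 belonged to a single pair and 19 to 2 pairs. Members had a median anti-control level of 5.71 log2 CPM, near the 5.67 of the other expressed genes, but shorter gene bodies, with a median span of 16.6 kb against 27.2 kb. Chromosome Y held 3 expressed genes and 0 members. On the other chromosomes the members' share of the expressed genes ran from 8.85% on chromosome X and 9.17% on chromosome 13 to 22.7% on chromosome 10 and 23.7% on chromosome 12. At the edge of the rule, RGD1561113 and Letm2 entered with anti-control means of 4.001 and 4.003 log2 CPM, while Taf1d, at 3.999, stayed out. By distance, Siah1 and Lonp2 entered at 4972 bases, and Cox5b and Actr1b stayed out at 5016 bases.

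Most members were not called after silencing, and of those that were more fell than rose. With limma and a Benjamini-Hochberg adjusted p of at most 0.05 over all genes, 71 members (6.26%) rose and 105 (9.25%) fell. Of the other expressed genes 6.84% rose and 6.8% fell, and of all 13733 genes 10.9% rose and 4.65% fell. The share of members that rose thus lay close to that of the other expressed genes, and the share that fell was above it by 2.45 percentage points. With the replicate number as a block, which pairs the libraries of the same rat, 143 members rose and 338 fell (12.6% and 29.8%), beside 14.1% and 25.0% of the other expressed genes and 17.6% and 17.7% of all genes. Increases made up 40.3% of the member calls, but 56.0% with quantile normalization and 65.1% with scaling by library size alone. They made up 47.5% when the level was taken from the anti-mt-tRF-LeuTAA mean. The balance between rises and falls thus depended on the scaling and on the group that set the level, whereas the order of members and other genes did not. No test was made of the difference between the lists, because genes are not replicates of a condition.

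The changes were small. The median log2 fold change of the members was -0.08 (quartiles -0.25 and 0.08), beside -0.06 (quartiles -0.22 and 0.09) in the other expressed genes and -0.04 in all genes. With scaling by library size alone the medians of both lists lay near 0, at -0.010 and 0.0066. When libraries of the same number were subtracted, the median member change was negative in all 6 pairs of libraries, from -0.14 to -0.01, and below the median of the other expressed genes in each. The gap between the lists shrank with a stricter rule: with both genes at 5 log2 CPM or more the medians were -0.08 in both lists, and with 3′ ends at most 1 kb apart they were -0.07 in both. Reads in members made up 11.0% ± 0.63 of all reads in genes in anti-control and 10.5% ± 0.39 in anti-mt-tRF-LeuTAA (SD, n = 6), and the groups overlapped. The 6 libraries of each group did not overlap for 40 members that were higher and 52 that were lower after silencing. Those counts are 3.52% and 4.58% of the members, against 3.93% and 3.36% of the other expressed genes and 7.92% and 2.27% of all genes. Of the 1135 members, 1 was called with a rise of at least 2-fold and 0 with a fall as large. Among the 6693 other expressed genes these counts were 21 and 0. Among all 13733 genes they were 799 and 8, of which 520 and 2 were genes under 0 log2 CPM in anti-control.

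The difference between the lists was widest among the quietest genes. At an anti-control mean of 4 to 5 log2 CPM, 24 of 306 members fell (7.84%), beside 61 of 1910 other expressed genes (3.19%), while 22 members rose (7.19%) beside 8.69% of the others. From 5 to 6 log2 CPM 7.69% of members and 6.01% of the others fell, and from 6 to 7 the shares were 10.3% and 8.13%. From 7 to 8 the order turned, with 11.3% of members and 11.8% of the others lower, and at 8 and over 15.3% and 12.7% were lower. With the replicate block the members also had the smaller share at 8 and over, 45.8% against 46.2%, and from 7 to 8 it was 30.1% against 34.3%. In the class from 4 to 5 the larger share of members held in every fit run, from 4.25% against 1.57% with scaling by library size alone to 25.8% against 16.3% with the replicate block.

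**Figure D1:**
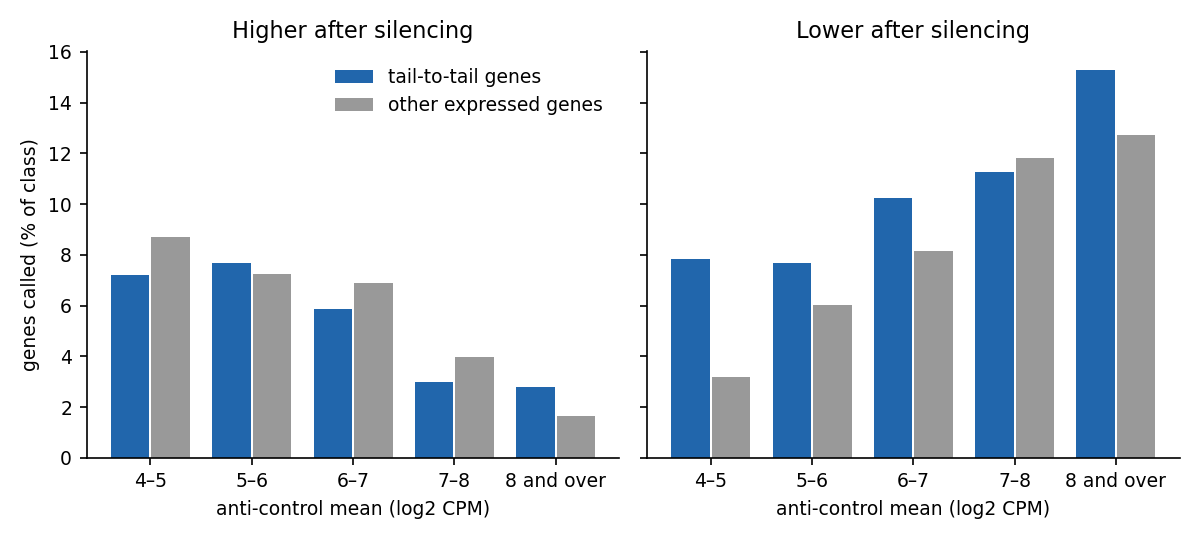
Bars give the percentage of genes called higher (left) and lower (right) after silencing, from 0, for tail-to-tail genes (blue) and the other expressed genes (grey), by class of anti-control mean in log2 CPM. In the class from 4 to 5, 7.84% of the tail-to-tail genes and 3.19% of the other genes were lower, and in the class from 7 to 8 the shares were 11.3% and 11.8%.

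A larger share of members than of the other expressed genes fell in each class of gene span. Under 10 kb, 10.7% of members and 7.89% of the others fell. From 10 to 30 kb the shares were 8.45% and 6.46%, from 30 to 100 kb 8.74% and 6.87%, and over 100 kb, with 61 members, 8.20% and 5.75%. An expressed gene that ends upstream on the same strand marked a larger contrast. Of the 414 members with such a gene within 50 kb, 37 rose and 33 fell (8.94% and 7.97%; median -0.05), and of the 721 without one, 34 rose and 72 fell (4.72% and 9.99%; median -0.11). The other expressed genes showed the same order, with 9.80% higher and 6.03% lower with an upstream neighbour (median -0.04) and 5.71% higher and 7.09% lower without one (median -0.08). The most similar arrangements gave medians of -0.03 for 430 expressed genes followed on the same strand by the start of another within 5 kb (tandem) and for 594 with the start of an opposite-strand gene within 5 kb of their own start (divergent). Of these, 8.14% rose and 6.51% fell in the tandem arrangement, and 8.42% rose and 6.06% fell in the divergent one.

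By distance between the 3′ ends, the share of members that fell was smallest within 1 kb. Of the 192 members that overlapped their partner 14 rose and 19 fell (7.29% and 9.90%; median -0.08). Of the 332 within 1 kb 19 rose and 26 fell (5.72% and 7.83%; median -0.07). Of the 611 at more than 1 kb 38 rose and 60 fell (6.22% and 9.82%; median -0.09). Of the other expressed genes 6.84% rose and 6.8% fell. The shares differed little between the quieter and the louder partner. Of 567 quieter partners 37 rose and 51 fell (6.53% and 8.99%; median -0.07). Of 568 louder partners 34 rose and 54 fell (5.99% and 9.51%; median -0.09). The 45 members whose partner was more than 3 log2 CPM above them held 4 that rose and 7 that fell (8.89% and 15.6%; median -0.15). The 46 that stood more than 3 above their partner held 1 and 4 (2.17% and 8.70%; median -0.17). Counting by strand is not stated in the sources used here for these stranded libraries, so where annotated tails overlap, reads of one partner may have been left out or given to the other.

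**Figure D2:**
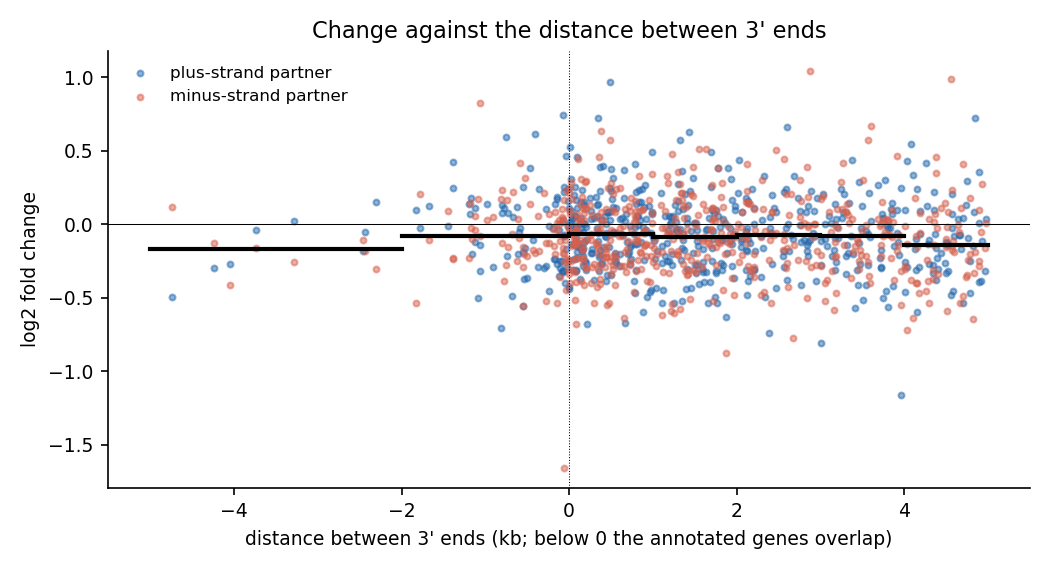
Each point is a partner of a pair, with the distance between the 3′ ends in kb on the horizontal axis (below 0 the genes overlap) and its log2 fold change on the vertical axis; black lines are medians of bins, and 13 pairs that overlap by more than 5 kb are left out. Bin medians run from -0.17 (8 pairs, overlaps of 2 to 5 kb) and -0.14 (63 pairs, 4 to 5 kb apart) to -0.07 (166 pairs, 0 to 1 kb apart), while single genes reach from -1.66 to 1.04.

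The change of one partner said little about that of the other. Across the 577 pairs the log2 fold changes had a Pearson r of -0.06 and a Spearman rho of -0.07, a description across pairs whose points share the same 12 libraries. Both partners rose in 5 pairs, both fell in 4, and they moved in opposite directions in 5. In 152 pairs 1 partner was called and in 411 neither. With the replicate block both rose in 8 pairs, both fell in 47 and they went opposite ways in 53. For comparison, r was 0.08 in 476 tandem pairs and 0.06 in 386 divergent pairs of expressed genes. In the tandem pairs both rose in 4, both fell in 2 and they went opposite ways in 1. In the divergent pairs these counts were 0, 1 and 9. With the replicate block they were 12, 26 and 29 in tandem and 7, 18 and 19 in divergent pairs. Across the 12 libraries, with the group means removed, the median r between convergent partners was 0.01. It was 0.11 in tandem and 0.16 in divergent pairs. With the mean of each rat also removed, these medians were 0.09 in convergent, 0.20 in tandem and 0.14 in divergent pairs.

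**Figure D3:**
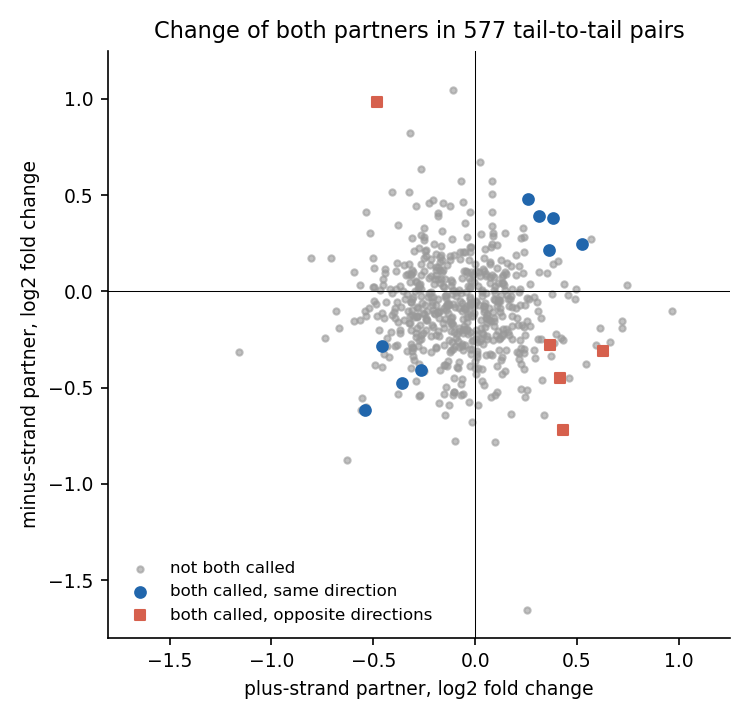
Each of the 577 points is a tail-to-tail pair, with the log2 fold change of the plus-strand partner on the horizontal and that of the minus-strand partner on the vertical axis. Blue circles are the 9 pairs in which both genes were called in the same direction, red squares the 5 in which they were called in opposite directions, and the cloud shows no slope (Pearson r of -0.06).

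Of the pairs called in opposite directions, Tasor2 and Gdi2 were the pair whose larger adjusted p was smallest. They lie on chromosome 17 of Rnor_6.0, Tasor2 on the plus strand at chr17:70262363-70297751 and Gdi2, a Rab GDP dissociation inhibitor of vesicle traffic, on the minus strand at chr17:70299183-70325855, with 1431 bases between their ends. Tasor2 stood at 5.53, 5.76 and 6.02 log2 CPM (lowest, median and highest) in anti-control and at 6.10, 6.39 and 6.64 in anti-mt-tRF-LeuTAA. All 6 silenced libraries lay above all 6 controls, a difference of 0.63 ± 0.11 (SE, log2; adjusted p = 0.00119, limma). Gdi2 stood at 8.03, 8.17 and 8.26 in anti-control and at 7.79, 7.86 and 7.92 after silencing. Here the silenced libraries were all below the controls, by -0.31 ± 0.05 (adjusted p = 0.00106, limma). The call on Gdi2 was lost with quantile normalization (adjusted p = 0.0767, limma), whereas its values in the 19 alternative fits otherwise began at 0.000579.

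Bbs4 and Adpgk on chromosome 8 also parted. Bbs4 encodes a subunit of the BBSome, which carries membrane proteins to and from cilia, and Adpgk encodes the ADP-dependent glucokinase. Their ends lie 4559 bases apart, Adpgk at chr8:64088913-64116832 and Bbs4 at chr8:64121392-64154396. Bbs4 stood at 5.08, 5.23 and 5.44 log2 CPM in anti-control and at 5.87, 6.28 and 6.47 after silencing, with no overlap. The rise was 0.98 ± 0.11 (SE, log2), or 1.98-fold (adjusted p = 2.24e-05, limma). Adpgk stood at 5.16, 5.27 and 5.91 in anti-control and at 4.85, 4.96 and 5.08 after silencing, again with no overlap between the groups. Its decrease was -0.48 ± 0.14 (adjusted p = 0.0363, limma), and the call was lost in 8 of 19 alternative fits, in which adjusted p ranged from 0.00478 to 0.101.

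The other pairs of this kind were Prmt7, an arginine methyltransferase, with Smpd3, a neutral sphingomyelinase, 656 bases apart on chromosome 19, Msl2, a ubiquitin ligase of a chromatin complex, with Ppp2r3a, a regulatory subunit of protein phosphatase 2A, 4029 bases apart on chromosome 8, and Nup153, a nuclear pore protein, with Fam8a1, 4260 bases apart on chromosome 17. Prmt7 rose by 0.37 ± 0.07 (adjusted p = 0.00181, limma) with no overlap between groups, and Smpd3 fell by 0.28 ± 0.08 (adjusted p = 0.0346, limma). The groups of Smpd3 overlapped, and it was lower in 5 libraries and higher in 1 than in the control of the same number. Nup153 rose by 0.42 ± 0.12 and Fam8a1 fell by 0.45 ± 0.11 (adjusted p = 0.0363 and 0.0159, limma), both with overlapping groups. Ppp2r3a is described below with the largest decreases. In each of these 3 pairs, and in Adpgk and Bbs4, at least 1 of the 2 calls was lost in 6 to 8 of the 12 fits that left out 1 library, with the larger adjusted p of the pair reaching 0.0662 to 0.0837 (limma).

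**Figure D4:**
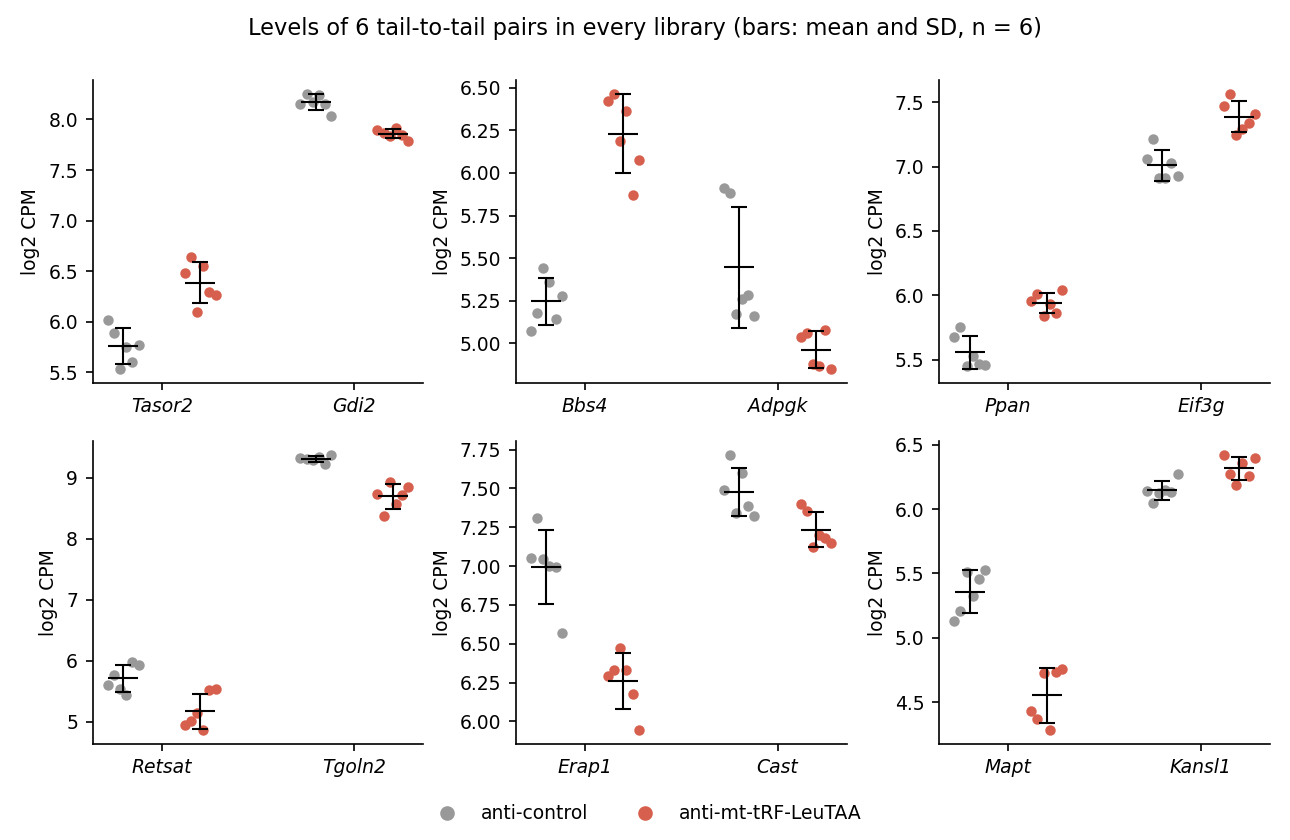
Points are the log2 CPM of single libraries (grey anti-control, red anti-mt-tRF-LeuTAA) for both genes of 6 tail-to-tail pairs, with bars for the mean and SD (n = 6 per group); the vertical axes do not start at 0. Tasor2 and Gdi2, and Bbs4 and Adpgk, part in opposite directions. Ppan and Eif3g rise together, and Retsat and Tgoln2 fall together. Erap1 and Mapt fall beside Cast and Kansl1, which were not called in the fit without the replicate block.

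Among the 5 pairs in which both partners rose, Ppan and Eif3g lie 1782 bases apart on chromosome 8 (chr8:21905865-21909842 and chr8:21911625-21915716). Ppan acts in ribosome biogenesis and Eif3g is a subunit of the translation initiation factor eIF3. Ppan stood at 5.45, 5.50 and 5.75 log2 CPM in anti-control and at 5.84, 5.94 and 6.04 after silencing. Eif3g stood at 6.91, 6.98 and 7.21 in anti-control and at 7.25, 7.37 and 7.57 after silencing. Neither gene overlapped between groups, and each rose by 0.38 ± 0.07 (adjusted p = 0.00167 for Ppan and 0.00264 for Eif3g, limma), in all 19 alternative fits.

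Orc2, a subunit of the origin recognition complex, and its neighbour Nif3l1 lie 1485 bases apart on chromosome 9. Orc2 stood at 5.73, 5.84 and 5.92 log2 CPM in anti-control and at 6.11, 6.18 and 6.38 after silencing, with no overlap, and rose by 0.39 ± 0.06 (adjusted p = 0.000631, limma). Nif3l1 stood at 4.18, 4.22 and 4.49 in anti-control and at 4.42, 4.60 and 4.67 after silencing. Its groups overlapped and it rose by 0.31 ± 0.08 (adjusted p = 0.0131, limma). Pomt1, a protein O-mannosyltransferase, and Uck1, a uridine-cytidine kinase, end 12 bases apart on chromosome 3 and rose by 0.53 ± 0.08 and 0.25 ± 0.07 (adjusted p = 0.000374 and 0.0363, limma). Pgam5, a mitochondrial phosphatase, and Ankle2, a protein of the nuclear envelope, rose by 0.36 ± 0.10 and 0.22 ± 0.06 (adjusted p = 0.0207 and 0.0285, limma). Eif2b1, a subunit of the guanine nucleotide exchange factor eIF2B, and Ddx55, an RNA helicase, are annotated with an overlap of 12394 bases on chromosome 12 and rose by 0.26 ± 0.08 and 0.48 ± 0.07 (adjusted p = 0.0402 and 0.000514, limma). The groups of Uck1, Pgam5, Ankle2 and Eif2b1 overlapped, and those of Pomt1 and Ddx55 did not. Eif2b1 was higher in 5 libraries and lower in 1 than in the control of the same number. In the last 3 pairs at least 1 call was lost in 7 to 9 of 12 fits that left out a library, with the larger adjusted p up to 0.0902 (limma).

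Of the 4 pairs in which both partners fell, Retsat and Tgoln2 lie 1114 bases apart on chromosome 4 (chr4:100465170-100474301 and chr4:100475416-100483168). Tgoln2, an integral protein of the trans-Golgi network, stood at 9.23, 9.31 and 9.38 log2 CPM in anti-control and at 8.37, 8.73 and 8.92 after silencing. The groups did not overlap and the level fell by 0.61 ± 0.09, or 1.53-fold (adjusted p = 0.000289, limma). Retsat, a retinol saturase, stood at 5.44, 5.68 and 5.98 in anti-control and at 4.87, 5.07 and 5.53 after silencing. These groups overlapped, although it was lower in 6 of 6 libraries than in the control of the same number, and it fell by 0.54 ± 0.14 (adjusted p = 0.0193, limma). Both calls stood in all 19 alternative fits.

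The remaining such pairs were Gcgr, the glucagon receptor, with Mcrip1, 4015 bases apart on chromosome 10, Zfp710, a zinc finger protein, with Idh2, the mitochondrial NADP-dependent isocitrate dehydrogenase, overlapping by 4043 bases on chromosome 1, and Mrpl16, a protein of the mitochondrial ribosome, with Stx3, a syntaxin of membrane fusion, 2287 bases apart on chromosome 1. Gcgr fell by 0.46 ± 0.12 and Mcrip1 by 0.28 ± 0.08 (adjusted p = 0.016 and 0.0295, limma). Idh2 fell by 0.41 ± 0.09 (adjusted p = 0.00894, limma) from a median of 7.90 to 7.54 log2 CPM with no overlap, and Zfp710 fell by 0.27 ± 0.08 (adjusted p = 0.0455, limma). Mrpl16 fell by 0.36 ± 0.08 with no overlap (adjusted p = 0.00523, limma), and Stx3 by 0.48 ± 0.15 (adjusted p = 0.0468, limma). The groups of Gcgr, Mcrip1, Zfp710 and Stx3 overlapped. Zfp710 was lower in 5 libraries and higher in 1 than in the control of the same number. In these 3 pairs at least 1 call was lost in 8 or 9 of the 12 fits without a library and with scaling by library size alone, with the larger adjusted p up to 0.096 in the former (limma).

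Among called members whose 6 libraries of a group lay on one side of the other group's median, the 5 largest increases were those of Junb, Bbs4, Tns2, Ddx39a and Armc7, and in 4 of the 5 cases the partner across the 3′ end was not called. Junb, a component of the transcription factor AP-1, stood at 6.23, 7.07 and 7.46 log2 CPM in anti-control and at 7.38, 7.79 and 8.78 after silencing. The groups overlapped and the rise of 1.04 ± 0.29, or 2.06-fold (adjusted p = 0.0291, limma), was seen in 5 of 6 libraries of the same number. Its call was lost in 6 of 12 fits that left out a library, up to an adjusted p of 0.0672 without anti-mt-tRF-LeuTAA replicate 1 (range of the 19 alternatives 0.00151 to 0.0672). Its partner Prdx2, a peroxiredoxin whose end lies 2879 bases away on chromosome 19, stood at medians of 7.43 and 7.27 log2 CPM (difference -0.11 ± 0.07, adjusted p = 0.381, limma).

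Tns2, a tensin of focal adhesions, stood at 3.94, 4.27 and 5.13 log2 CPM in anti-control and at 4.55, 5.37 and 5.93 after silencing. The groups overlapped, and it rose by 0.97 ± 0.27 (adjusted p = 0.027, limma), a call lost in 7 fits without 1 library (range of the alternatives 6.25e-05 to 0.0639). Ddx39a, an RNA helicase of mRNA export, stood at 4.82, 5.16 and 5.72 in anti-control and at 5.75, 5.91 and 6.29 after silencing. Its groups did not overlap, and it rose by 0.72 ± 0.16 (adjusted p = 0.00754, limma). Armc7, with overlapping groups, rose by 0.72 ± 0.22 (adjusted p = 0.0424, limma), and its call was lost in 9 of 19 alternative fits (0.0000901 to 0.0935). The partners Spryd3 (-0.10 ± 0.11), Adgre5 (-0.15 ± 0.36) and Jpt1 (-0.19 ± 0.15) had adjusted p-values of 0.618, 0.835 and 0.454 (limma).

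Mapt, Erap1 and Ppp2r3a were among the 5 with the largest decreases by the same rule. Mapt, which encodes the microtubule-associated protein tau, stood at 5.13, 5.39 and 5.53 log2 CPM in anti-control and at 4.29, 4.58 and 4.76 after silencing. The groups did not overlap and the level fell by 0.81 ± 0.11, or 1.75-fold (adjusted p = 0.000177, limma). Its partner Kansl1, a subunit of a histone acetyltransferase complex whose end lies 3012 bases away on chromosome 10, stood at medians of 6.14 and 6.32 log2 CPM (difference 0.17 ± 0.06, adjusted p = 0.0608, limma). Kansl1 was higher in 6 of 6 libraries of the same number, and adjusted p was 0.0202 with the replicate block (range of the alternatives 0.0112 to 0.129).

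Ppp2r3a stood at 4.21, 4.38 and 4.63 log2 CPM in anti-control and at 3.36, 3.58 and 4.10 after silencing, without overlap, and fell by 0.72 ± 0.14 (adjusted p = 0.00391, limma). Msl2, its partner, stood at 5.21, 5.32 and 5.39 in anti-control and at 5.33, 5.69 and 6.11 after silencing. The groups of Msl2 overlapped and it rose by 0.43 ± 0.12 (adjusted p = 0.0312, limma), a call lost in 6 fits without 1 library (range of the alternatives 0.00605 to 0.0662).

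Erap1, at chr2:1410934-1449733, encodes an aminopeptidase that trims peptides for MHC class I and belongs to the interferon system. Erap1 stood at 6.57, 7.02 and 7.31 log2 CPM in anti-control and at 5.95, 6.31 and 6.48 after silencing. The groups did not overlap, and it fell by 0.74 ± 0.12, or 1.67-fold (adjusted p = 0.000637, limma). Its partner Cast, the calpain inhibitor calpastatin, whose end lies 2382 bases away on chromosome 2, differed by -0.24 ± 0.08 (adjusted p = 0.061, limma). With the replicate block Cast reached an adjusted p of 0.00658 (range of the alternatives 0.00658 to 0.286).

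Other members of the interferon system, chosen after their values were seen, varied widely from rat to rat. Irf7, an interferon regulatory factor, stood at 5.04, 7.24 and 9.44 log2 CPM in anti-control and at 3.73, 5.67 and 7.84 after silencing. The groups overlapped, and the difference of -1.66 ± 0.77 did not pass (adjusted p = 0.182, limma), but it was lower in 6 of 6 libraries of the same number and fell with the replicate block (-1.66 ± 0.20, adjusted p = 0.000255, limma). Phrf1, whose tail overlaps Irf7 by 65 bases, rose by 0.26 ± 0.07 (adjusted p = 0.0309, limma). Mx2, an interferon-induced GTPase, stood at 3.46, 6.19 and 8.69 in anti-control and at 2.71, 5.11 and 7.93 after silencing, with a difference of -1.16 ± 0.96 (adjusted p = 0.481, limma) that also passed only with the block (-1.16 ± 0.25, adjusted p = 0.00592, limma). These were the only 2 members whose mean was lower by 2-fold or more.

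A pair on chromosome 6 was made of 2 such genes, Ifi27 at chr6:127327959-127334428 and Ifi27l2b at chr6:127336305-127337791, both interferon-induced and 1876 bases apart. Ifi27 stood at 7.08, 8.28 and 9.07 log2 CPM in anti-control and at 6.33, 7.66 and 8.51 after silencing. Ifi27l2b stood at 6.51, 8.66 and 9.71 in anti-control and at 6.06, 8.08 and 8.46 after silencing. The groups of both genes overlapped, and the differences of -0.63 ± 0.38 and -0.88 ± 0.54 had adjusted p-values of 0.314 and 0.324 (limma). With the replicate block both were called lower (adjusted p = 8.36e-05 and 0.00103, limma), and in 6 of 6 libraries of the same number both were lower. Psmb10, an immunoproteasome subunit, went the other way: it stood at 4.55, 5.28 and 6.06 in anti-control and at 5.16, 5.88 and 6.33 after silencing. Its difference of 0.46 ± 0.26 passed only with the block (adjusted p = 0.277 without and 0.00145 with it, limma).

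The promoters of Ifi27 and Psmb10 are shown because these genes vary in the manner described and hold 2 copies of GAAA with 2 bases between them, the core of the element bound by interferon-activated factors, searched on both strands of 250 bases before to 50 bases after each start in RefSeq promoters of GRCr8. Capitals mark the matches. The window lies at chr6:128355062-128355361 on the plus strand for Ifi27 and at chr19:50743243-50743542 on the minus strand for Psmb10, both in GRCr8.
Ifi27: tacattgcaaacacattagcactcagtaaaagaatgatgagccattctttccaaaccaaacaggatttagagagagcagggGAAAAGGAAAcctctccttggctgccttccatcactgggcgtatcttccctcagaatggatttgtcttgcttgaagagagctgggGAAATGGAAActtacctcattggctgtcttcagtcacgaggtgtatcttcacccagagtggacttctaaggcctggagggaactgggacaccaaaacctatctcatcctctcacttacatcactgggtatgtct
Psmb10: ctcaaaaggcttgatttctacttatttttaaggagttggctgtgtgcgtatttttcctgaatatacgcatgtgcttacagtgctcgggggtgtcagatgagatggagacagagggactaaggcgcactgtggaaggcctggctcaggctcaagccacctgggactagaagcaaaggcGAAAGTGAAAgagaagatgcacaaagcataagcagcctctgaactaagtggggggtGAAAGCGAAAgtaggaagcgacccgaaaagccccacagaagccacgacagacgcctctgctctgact
Each promoter held 2 matches, at -169 and -84 from the gene start in Ifi27 and at -73 and -17 in Psmb10. The letters occurred in 1312 of 33469 rat promoters of the same length (3.92%). With a single promoter taken per symbol, they occurred in 24 of the 920 members with a promoter in that table (2.61%). The 33469 were not reduced to a single promoter per symbol. A match describes the sequence only.

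No gene of the 3 pairs with the longest shared annotation passed the test without the replicate block. Ero1b, an oxidase of disulphide bond formation in the endoplasmic reticulum, and Gpr137b, a lysosomal membrane protein, overlap by 36250 bases on chromosome 17. Ero1b stood at 10.15, 11.34 and 11.85 log2 CPM in anti-control and at 9.39, 10.74 and 10.90 after silencing, and Gpr137b at 4.23, 4.67 and 5.34 and at 3.82, 4.13 and 4.61. The groups overlapped in both, with differences of -0.62 ± 0.33 and -0.56 ± 0.20 (adjusted p = 0.254 and 0.0741, limma), and with the replicate block both were lower (adjusted p = 0.036 and 0.00206, limma). Ppm1e, a protein phosphatase that overlaps the ubiquitin ligase gene Trim37 by 20224 bases on chromosome 10, differed by -0.78 ± 0.28 (adjusted p = 0.0838, limma), and with the block fell at an adjusted p of 0.00234. Trim37 differed by 0.10 ± 0.08 (adjusted p = 0.499, limma). Gmppb and Rnf123, which overlap by 27110 bases on chromosome 8, differed by -0.01 ± 0.22 and -0.26 ± 0.11 (adjusted p = 0.979 and 0.125, limma), and Rnf123 was lower with the block (adjusted p = 0.00256).

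None of the 4 genes that end closest without overlap was called. Gorasp1, a Golgi stacking protein, and Wdr48, a cofactor of deubiquitinases, end 3 bases apart on chromosome 8 and differed by -0.05 ± 0.14 and 0.11 ± 0.05 (adjusted p = 0.848 and 0.167, limma). Idh3b, a subunit of the mitochondrial isocitrate dehydrogenase, and Nop56, a nucleolar protein, end 5 bases apart on chromosome 3 and differed by 0.07 ± 0.08 and -0.03 ± 0.08 (adjusted p = 0.672 and 0.861, limma). Of the 3 pairs with the most abundant quieter gene, that of Dpp7, a lysosomal dipeptidyl peptidase, held the only call. Dpp7 stood at 8.47, 8.53 and 8.78 log2 CPM in anti-control and at 7.64, 7.87 and 8.19 after silencing, with no overlap (-0.68 ± 0.10, adjusted p = 0.000261, limma). Man1b1, a mannosidase of the secretory pathway whose end lies 85 bases away on chromosome 3, stood at 8.01, 8.17 and 8.42 and at 8.03, 8.12 and 8.40 (difference -0.01 ± 0.09, adjusted p = 0.945, limma). Cnot1, the scaffold of the CCR4-NOT deadenylase, differed by 0.08 ± 0.07 and its partner Ndrg4 by -0.33 ± 0.12 (adjusted p = 0.486 and 0.0868, limma), with Ndrg4 lower under the block (adjusted p = 0.0219).

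By function, the members were spread thinly. Of 26 members of vesicle traffic 0 rose and 3 fell, namely Ap3m1, Ap1s1 and Stx3, beside 4.07% and 12.2% of the other expressed genes of the same list. With the replicate block 2 of these members rose and 9 fell, beside 5.69% and 32.5% of the others. Ap3m1, a subunit of the AP-3 adaptor, fell from 6.82, 6.89 and 7.02 log2 CPM to 6.03, 6.44 and 6.63 without overlap (-0.49 ± 0.09, adjusted p = 0.00162, limma). Of 15 solute carriers 0 rose and 1 fell, with a median of -0.25 over the members, and with the replicate block 1 rose and 11 fell. Of the other expressed solute carriers 3.94% rose and 9.45% fell (median -0.17), and 8.66% and 33.9% with the block. The member that fell was Slc35a1, the CMP-sialic acid transporter (-0.25 ± 0.08, adjusted p = 0.0444, limma), whose call was lost in 11 of 19 alternative fits (0.0253 to 0.186). Of 31 members of the ubiquitin system 2 rose and 3 fell (6.45% and 9.68%), beside 4.90% and 1.40% of the other expressed genes of that list, and with the block 22.6% of members and 18.2% of the others were lower. Those that fell included the ubiquitin ligases Rnf34 (-0.46 ± 0.08, adjusted p = 0.00222, limma) and Rnf214 (-0.40 ± 0.08, adjusted p = 0.00466, limma). Of 25 kinases and phosphatases 2 rose and 3 fell, beside 9.73% and 8.85% of the others. With the block 4 rose and 6 fell, beside 16.8% and 23.0% of the others. Cdk11b, a cyclin-dependent kinase, rose by 0.35 ± 0.06 (adjusted p = 0.000796, limma), and Ppp2r3a was among those that fell. Of 14 zinc finger proteins 1 rose, Zfp335 (0.25 ± 0.08, adjusted p = 0.0412, limma; lost in 10 of 19 alternatives, 0.00509 to 0.0937), and 1 fell, Zfp710, beside 16.5% and 4.51% of the other expressed zinc finger genes.

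Lists of protein synthesis and RNA processing held few members each. Of 10 translation factors 3 rose and 1 fell, beside 10.4% and 0% of the other expressed genes of that list. Of 9 splicing genes 2 rose and 1 fell, beside 15.4% and 0% of the other expressed splicing genes. Srsf9, a splicing regulator 173 bases from the end of Gatc on chromosome 12, stood at 5.26, 5.44 and 5.55 log2 CPM in anti-control and at 4.88, 4.92 and 5.27 after silencing (-0.42 ± 0.09, adjusted p = 0.0055, limma). Its groups overlapped. Prpf39, a factor of the U1 particle, rose by 0.24 ± 0.07 (adjusted p = 0.028, limma), a call lost in 7 fits without 1 library (range of the alternatives 0.00937 to 0.0641). Rps27l, a ribosomal protein paralogue whose reads may be shared with near-identical copies, stood at 4.82, 4.91 and 5.30 in anti-control and at 5.33, 5.57 and 5.78 after silencing. It rose by 0.55 ± 0.10 without overlap (adjusted p = 0.00305, limma) and was the 1 called among 12 members that the cytosolic ribosome list held (8.33%), beside 0% higher and 1.79% lower of the other expressed genes of that list. With the replicate block 3 of these 12 members rose and 0 fell, beside 10.7% and 1.79% of the others.

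Members in the mitochondrial lists were also few. Of 10 members of the mitochondrial ribosome 1 fell (Mrpl16) and 0 rose, beside 6.38% higher and 2.13% lower of the other expressed genes of that list. Of 8 nuclear genes of the respiratory chain 1 fell and 0 rose, beside 0% higher and 1.49% lower of the others. The latter member was Ndufaf3, an assembly factor of complex I that ends 18 bases from Impdh2 on chromosome 8, at 4.45, 4.56 and 4.64 log2 CPM in anti-control and 4.13, 4.32 and 4.42 after silencing. Its groups did not overlap and it fell by 0.25 ± 0.07 (adjusted p = 0.0343, limma), a call lost in 10 of 19 alternative fits (0.0288 to 0.169). Of 7 proteasome members 1 rose, Psmb4 (0.23 ± 0.07, adjusted p = 0.0425, limma), with its call lost in 10 of 19 alternatives (0.0108 to 0.0938), beside 11.8% higher and 2.94% lower of the other expressed proteasome genes. Of 7 members of RNA polymerases and Mediator 0 were called (9.38% and 6.25% of the others rose and fell), and 1 had an unadjusted p under 0.05.

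The factors that cleave RNA at 3′ ends and release the polymerase were examined as background. Of 45 measured, 9 rose and 1 fell, and with the replicate block 13 and 4. The termination factor Pcf11 rose from a mean of 6.50 ± 0.14 to 7.84 ± 0.29 log2 CPM (SD, n = 6; difference 1.34 ± 0.12, adjusted p = 4.60e-06, limma). Rbbp6, a subunit of the cleavage machinery, rose from 6.41 ± 0.07 to 7.45 ± 0.21 (1.04 ± 0.09, adjusted p = 3.04e-06, limma). Wdr33, Cpsf7, Cstf3, Ppp1r10, Ints2 and Ints8 rose by 0.22 to 0.57. Cpsf3, the endonuclease that makes the cut, fell by 0.18 ± 0.06 (adjusted p = 0.0492, limma), a call lost with quantile normalization, with scaling by library size alone, without the intensity trend and with low genes left out. None of these 10 was a member. The 4 factors that were members, Scaf4, Cpsf1, Cpsf4 and Ints14, differed by 0.18, -0.15, -0.20 and -0.08, and none of them was called without the block. With the replicate block Scaf4 was higher and Cpsf1 lower (adjusted p = 0.0191 and 0.0408, limma), and the other members on this list were not called.

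Genes barely detected in control libraries were not read for a direction, because the table's own filter had largely fixed it. Every gene in the table had at least 0.508 CPM, here reads scaled to all reads in genes, in 6 of the 12 libraries. Of the 1187 genes under 0 log2 CPM in anti-control, 48 reached that level in all 6 control libraries, and the other 1139 (96.0%) were in the table with the help of silenced libraries. These 1187 genes held 521 of the 1494 increases over all genes and 2 of the 638 decreases, so the share of all genes that rose includes them, whereas the members and the other expressed genes were chosen at a level well above the filter. Of the low genes, 120 were tail to tail with an expressed gene, and of these 8 passed the filter in the control libraries alone, with 0 called. The other 112 held 55 that rose and 0 that fell. Of 98 that lay at most 5 kb beyond the end of an expressed gene of their own strand and had no convergent partner, 2 passed in the control libraries alone, with 1 called higher, and 83 of the other 96 rose. The numbers that passed in the control libraries are too small to compare these arrangements.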

How the data were processed

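Total RNA libraries of 12 samples (6 anti-control, 6 anti-mt-tRF-LeuTAA) were analysed. The deposited values are log2 CPM per gene: per the submitters' processing notes the authors used cutadapt 1.8, STAR 2.5.3a, Rnor_6.0, HTSeq 0.9.1, edgeR 3.30.3, R 4.0.3 and limma 3.44.3. Removing the logarithm and the prior count of 1 (proportional to library size) gave whole reads (tolerance 0.01), so their scaling between libraries is the authors'. No source used here names the strand setting of counting. The deposited means, fold changes and p-values of the authors' own comparison, and the files that repeat rows of the table, were not used.

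Genes were paired by annotated Rnor_6.0 positions, and nested genes were left out. limma 3.58.1 (R 4.3.3, lmFit, eBayes with trend) was fitted to all 13733 genes with Benjamini-Hochberg adjustment, without a block. This fit called 1494 genes higher and 638 lower. With the replicate block 2412 were higher and 2431 lower, the same counts that the study's supplement gives. Without the block the spread between rats stays in the error, so a gene not called may still differ within rats. An error after ± is an SE of a log2 difference unless named SD. Numbers pair the libraries of a rat: deviations of same-numbered libraries correlated at 0.546 to 0.885 (median 0.795), and 10 of 12 libraries correlated best with their own number. Values with the replicate block stand beside some of the results they change. The shares by gene span, upstream neighbour, distance, louder or quieter partner and several function lists come only from the fit without it. The members and all gene lists were chosen with earlier results of these data known. Named genes were the 4 pairs with both called and the smallest larger p, the 5 largest changes each way among called members whose 6 libraries of a group lay on 1 side of the other group's median, with their partners, the 3 longest overlaps, the 2 smallest distances, the 3 pairs with the most abundant quieter gene, those at the thresholds, and the 2 with the smallest p of each function list (by symbol). The other pairs with both called and the interferon genes were added after their values were seen. Some genes that meet these rules are not reported here. The fits were tested on simulated data. Alternatives are the scaling, prior count, trend, filter, limma-voom, block, each library left out, and the rule's distance and level. RefSeq promoters of GRCr8 were matched by symbol. With 16351696 to 23448990 reads per library, the quietest member, RGD1561113, still had 180 to 466 reads.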

Additional observations from a re-analysis of the deposited data

Results flagged for a closer look

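In 6 of 152 groups of 6 libraries examined, a single library stood far from the other 5, where chance alone flags about 1 in 20 groups. The groups were those of the named genes, of the median member change and of the share of reads in members, and those flagged were all of named genes. Of the members, Nif3l1 was at 4.42 log2 CPM in anti-mt-tRF-LeuTAA replicate 3, with the other 5 at 4.60 to 4.67. Prdx2 was at 7.21 in anti-control replicate 3, with the others at 7.40 to 7.51. Ppm1e was at 3.62 in anti-mt-tRF-LeuTAA replicate 2, with the others at 4.88 to 5.29, and its difference between groups ranged from -0.89 to -0.54 over the fits that left out 1 library. Polr2b was at 7.19 in anti-control replicate 4, with the others at 6.98 to 7.04, and Cdk11b was at 6.44 in anti-control replicate 6, with the others at 6.22 to 6.30. Cox5b, just outside the distance limit, was at 6.83 in anti-control replicate 2, with the others at 6.51 to 6.59. No library was flagged in more than 1 of these genes.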

How the results depend on the processing

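In all 27 alternatives, 1 library left out at a time included, a larger share of members than of the other expressed genes fell, a smaller share rose, and the median change of the members was the lower one, although counts and medians moved. With the replicate block 143 members rose and 338 fell, 946 and 1673 of the other expressed genes did, and 4 of the 3′ end factors fell. With quantile normalization the medians were -0.044 for members and -0.030 for the others, and 56.0% of member calls were increases, against 40.3% in the fit reported. Scaling by library size alone left 52 members and 200 other expressed genes lower, took the medians to -0.010 and 0.0066 (the median of all genes rose to 0.04 from -0.04) and made 65.1% of member calls increases. The count of 3′ end factors that fell was 0 with either of these scalings, without the trend and with genes under 0 log2 CPM left out. With 3′ ends at most 1 kb apart 33 members rose and 45 fell, and with a level of at least 5 log2 CPM 36 rose and 59 fell, and 305 of the others rose; fewer genes enter both. With the level taken from anti-mt-tRF-LeuTAA the median of the members was -0.060 and that of the others -0.045. In that setting 7.53% of members rose and 8.33% fell, beside 8.90% and 6.43% of the others. Without genes that have an expressed upstream neighbour 34 members and 276 others rose. Leaving out 1 library gave 51 to 71 members higher and 74 to 115 lower, 354 to 457 and 314 to 502 of the others, medians of -0.09 to -0.07 and -0.07 to -0.05, 8 to 10 factors higher and 0 to 1 lower, and a Pearson r between partners of -0.07 to -0.05. Of 38 named genes called, 24 were called in all 19 alternative fits. The block lost none of the 38 calls and added 12 of 36 others. Among the 12 were Letm2, which was lower (adjusted p = 0.0255 with the block and 0.07 without, limma), and Slc7a6os, not described above, which was higher (0.0129 and 0.0638). Apart from these and those given above, the block changed no other call among the named genes.

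Of the 14 pairs with both genes called, 4 kept both calls in every fit without a library. The groups are 6 rats, and a share counted over genes that share libraries has no error of its own. With overlapping tails, how strand entered the counts was not tested. Genomic sequence at the 3′ ends was not analysed here.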
